A study of Mus musculus with 4 samples.

Results

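Myc and 9 genes of the cell division cycle were followed in RNA from exosomes, the small vesicles that cells release into their medium. The 10 genes were Myc, Ccnd1, Ccng1, Cdkn1a, Mdm2, Aurkb, Mki67, Top2a, Cdk1 and Pcna. They were taken by symbol from a table of 42977 rat genes, and all 10 were found there and passed the filter on low counts. The choice was made with earlier results of the same comparison known, among them the counts of Myc and the fold change of Aurkb. Every difference between the groups is therefore given for these 10 genes as a description, without a test of its own. Calls from tests run on all genes are listed, but nothing is read from them.

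The exosomes came from bone marrow mesenchymal stem cells (MSCs), adherent stromal cells of male SD rats aged 6–8 weeks, used at passages 3 to 4. In the MSCATV-Exo group the cells had been pretreated with 1 µmol/L atorvastatin (ATV), a statin, which blocks the rate-limiting enzyme of cholesterol synthesis. In the MSC-Exo group they had received the same volume of the solvent DMSO. The group labels give the pretreatment as 24 h and the treatment protocol as 48 h. Each group had 2 libraries, and each isolation pooled medium from 10 dishes. The labels do not say whether the 2 libraries came from separate animals or cultures, so differences within a group may be technical. An SD gives how far apart the 2 libraries of a group were for the gene named. An SE comes from the edgeR fit of all genes together and is not the library spread of that gene alone. The samples are registered as mouse, but the animals and the genome build are rat.

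Myc is a transcription factor that growth factors switch on within minutes and that drives ribosome production and entry into the cycle. Cyclin D1, from Ccnd1, starts the passage through G1, Pcna clamps the polymerase to DNA in S phase, and Cdk1, Top2a, Aurkb and Mki67 serve mitosis. Cdkn1a, Mdm2 and Ccng1 are classic targets of p53, the transcription factor of the DNA damage response. Statins are known to slow the division of many cultured cells, in part by depriving small GTPases of their lipid anchors. Exosomes carry RNA selected and fragmented from the cell, so their content is not a direct reading of transcription. In a bulk library, fewer vesicles with a transcript and fewer copies per vesicle cannot be told apart.

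The gene table held 5947020 and 5598378 counts in MSCATV-Exo replicates 1 and 2, against 5350295 and 5355098 in MSC-Exo replicates 1 and 2. Of the MSC markers examined, Vim averaged 207 RPKM (read counts scaled by the length of the gene model and by the library total), Col1a1 34.5 and Thy1 20.3 over the 4 libraries, while Col1a2 was listed at 0 in every library. These were not typical of the list: the median of the 14 MSC markers was 6.56 RPKM. For 34 leukocyte, endothelial and erythroid markers it was 5.33 RPKM. Across 33480 tested genes, edgeR's quasi-likelihood test called 0 at an adjusted p under 0.05 (0%), 1236 had an unadjusted p under 0.05, and DESeq2 called 90 of 36110 (0.249%).

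Myc (chromosome 7, 102586313 to 102591240, plus strand, rn6) showed the widest difference of the 10. It had 123 and 116 counts in MSCATV-Exo, against 15 and 21 in MSC-Exo. The exact 95% Poisson intervals of these counts were 102 to 147 and 95.9 to 139 in MSCATV-Exo, and 8.40 to 24.7 and 13.0 to 32.1 in MSC-Exo. The MSCATV-Exo intervals did not meet the MSC-Exo intervals, but Myc was chosen with these counts known, so nothing is read from this. Scaled to a common library size with TMM factors, the level was 21.6 ± 1.29 CPM (counts scaled by the library total, not by length) in MSCATV-Exo and 3.27 ± 0.801 CPM in MSC-Exo (SD, n = 2 each). The log2 fold change was 2.72 ± 0.59 (SE), or 6.57-fold, and lay between 2.48 and 2.99 with any 1 library left out.

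The level of Myc per length was 8.83 and 8.85 RPKM in MSCATV-Exo, against 1.197 and 1.67 RPKM in MSC-Exo. Olfactory receptor genes, whose products serve the nasal epithelium, give a scale for such low levels: their median over 1189 genes was 1.71 and 2.28 RPKM in MSCATV-Exo, against 2.48 and 2.36 RPKM in MSC-Exo. Myc was thus 5.17 and 3.89 times that median in MSCATV-Exo, and 0.484 and 0.708 times it in MSC-Exo. In both MSC-Exo libraries Myc lay within the quartiles of the receptor genes, and in both MSCATV-Exo libraries above them. The receptor median itself was lower in both MSCATV-Exo libraries, and the part of this in the Myc difference was not tested.

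Pvt1, the long non-coding RNA gene 57153 bases beyond Myc on the same strand, was looked at after its values were seen. It had 251 and 249 counts in MSCATV-Exo, against 297 and 217 in MSC-Exo (log2 fold change -0.04 ± 0.30, SE). The groups overlapped for Pvt1. The table also lists the Myc paralogs Bmyc, Mycn and Mycl, named here with their values known. Bmyc had 34 and 86 counts in MSCATV-Exo, against 20 and 30 in MSC-Exo (log2 fold change 1.24 ± 0.79, SE), and its groups did not overlap. For Mycn and Mycl they overlapped. Mycn had 40 and 132 counts in MSCATV-Exo against 68 and 50 in MSC-Exo, and Mycl had 98 and 62 in MSCATV-Exo against 81 and 103 in MSC-Exo.

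Ccnd1 (chromosome 1, 218090750 to 218100447, minus strand) encodes cyclin D1, the partner of CDK4 and CDK6 in G1. It had 384 and 444 counts in MSCATV-Exo, against 334 and 245 in MSC-Exo. The lowest MSCATV-Exo library lay just above the highest MSC-Exo library, at 15.9 against 15.4 RPKM. Normalised levels were 74.7 ± 6.28 CPM in MSCATV-Exo and 52.4 ± 10.9 CPM in MSC-Exo (SD, n = 2 each), which is 0.51 ± 0.28 (SE) as a log2 fold change, and 0.31 to 0.73 when 1 library was dropped.

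Of the p53 targets, Ccng1 (chromosome 10, 25903925 to 25910298, minus strand), which encodes cyclin G1, a recruiter of protein phosphatase to Mdm2, was the most abundant. It had 416 and 514 counts in MSCATV-Exo, against 215 and 232 in MSC-Exo. Both MSCATV-Exo libraries, at 21.9 and 28.7 RPKM, were above both MSC-Exo libraries, at 12.6 and 13.5 RPKM. The normalised level was 83.9 ± 10.97 CPM in MSCATV-Exo and 40.5 ± 2.58 CPM in MSC-Exo (SD, n = 2 each), a log2 fold change of 1.05 ± 0.28 (SE) that stayed between 0.91 and 1.18 with 1 library left out.

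Cdkn1a (chromosome 20, 6348422 to 6358864, plus strand) encodes p21, the inhibitor that holds cyclin-dependent kinases in check after p53 is activated. It had 74 and 164 counts in MSCATV-Exo, against 108 and 109 in MSC-Exo. The MSC-Exo pair fell between the 2 MSCATV-Exo libraries, so the groups overlapped and the log2 fold change of 0.12 ± 0.47 (SE) became -0.53 when MSCATV-Exo replicate 2 was dropped and 0.57 when MSCATV-Exo replicate 1 was dropped.

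Mdm2 (chromosome 7, 60719060 to 60743618, minus strand), the ubiquitin ligase that degrades p53, had 106 and 42 counts in MSCATV-Exo, against 49 and 52 in MSC-Exo. Again the MSC-Exo pair lay between the MSCATV-Exo libraries. The log2 fold change was 0.55 ± 0.64 (SE), and it was -0.29 when MSCATV-Exo replicate 1 was dropped and 1.09 when replicate 2 was. Between the 2 MSCATV-Exo libraries, Ccng1 and Cdkn1a were higher in replicate 2 and Mdm2 in replicate 1.

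Among the mitotic genes, Aurkb (chromosome 10, 55625860 to 55632399, plus strand), the kinase of the chromosomal passenger complex, differed most. It had 104 and 130 counts in MSCATV-Exo, against 50 and 35 in MSC-Exo. The groups did not overlap, at 7.90 and 10.5 RPKM in MSCATV-Exo against 4.22 and 2.95 RPKM in MSC-Exo. Normalised levels were 21.1 ± 2.93 CPM in MSCATV-Exo and 7.70 ± 1.85 CPM in MSC-Exo (SD, n = 2 each), which is 1.45 ± 0.52 (SE) as a log2 fold change, and 1.23 to 1.71 when 1 library was dropped.

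Mki67 (chromosome 1, 207993895 to 208020454, minus strand), which coats mitotic chromosomes and is the usual stain for dividing cells, was the steadiest of the 10. It had 334 and 337 counts in MSCATV-Exo, against 308 and 288 in MSC-Exo. In RPKM the groups overlapped, at 5.48 and 5.88 in MSCATV-Exo against 5.62 and 5.25 in MSC-Exo. With TMM factors they did not, at 60.6 ± 0.736 CPM in MSCATV-Exo and 54.0 ± 2.03 CPM in MSC-Exo (SD, n = 2 each). The log2 fold change was 0.17 ± 0.27 (SE) and 0.062 with total counts alone.

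Top2a (chromosome 10, 86901467 to 86930947, minus strand), the topoisomerase that untangles sister chromatids, had 117 and 167 counts in MSCATV-Exo, against 156 and 125 in MSC-Exo. The groups overlapped and the log2 fold change was 0.008 ± 0.38 (SE), or -0.087 with total counts. Cdk1 (chromosome 20, 20576341 to 20591510, plus strand), the kinase that starts mitosis, had 74 and 14 counts in MSCATV-Exo, against 29 and 47 in MSC-Exo. One MSCATV-Exo library was the highest of the 4 and the other the lowest. The Cdk1 log2 fold change of 0.22 ± 0.89 (SE) was -1.46 when MSCATV-Exo replicate 1 was dropped and 0.97 when MSCATV-Exo replicate 2 was.

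Pcna (chromosome 3, 124880698 to 124884570, minus strand), the sliding clamp of replication, had 20 and 56 counts in MSCATV-Exo, against 15 and 26 in MSC-Exo. MSCATV-Exo replicate 1 lay between the MSC-Exo libraries, so the groups overlapped. Its log2 fold change of 0.87 ± 0.98 (SE) rested on MSCATV-Exo replicate 2: with that library dropped it was -0.022. With MSCATV-Exo replicate 1 dropped it was 1.42, and with MSC-Exo replicate 1 or 2 dropped it was 0.51 or 1.33.

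**Figure D1:**
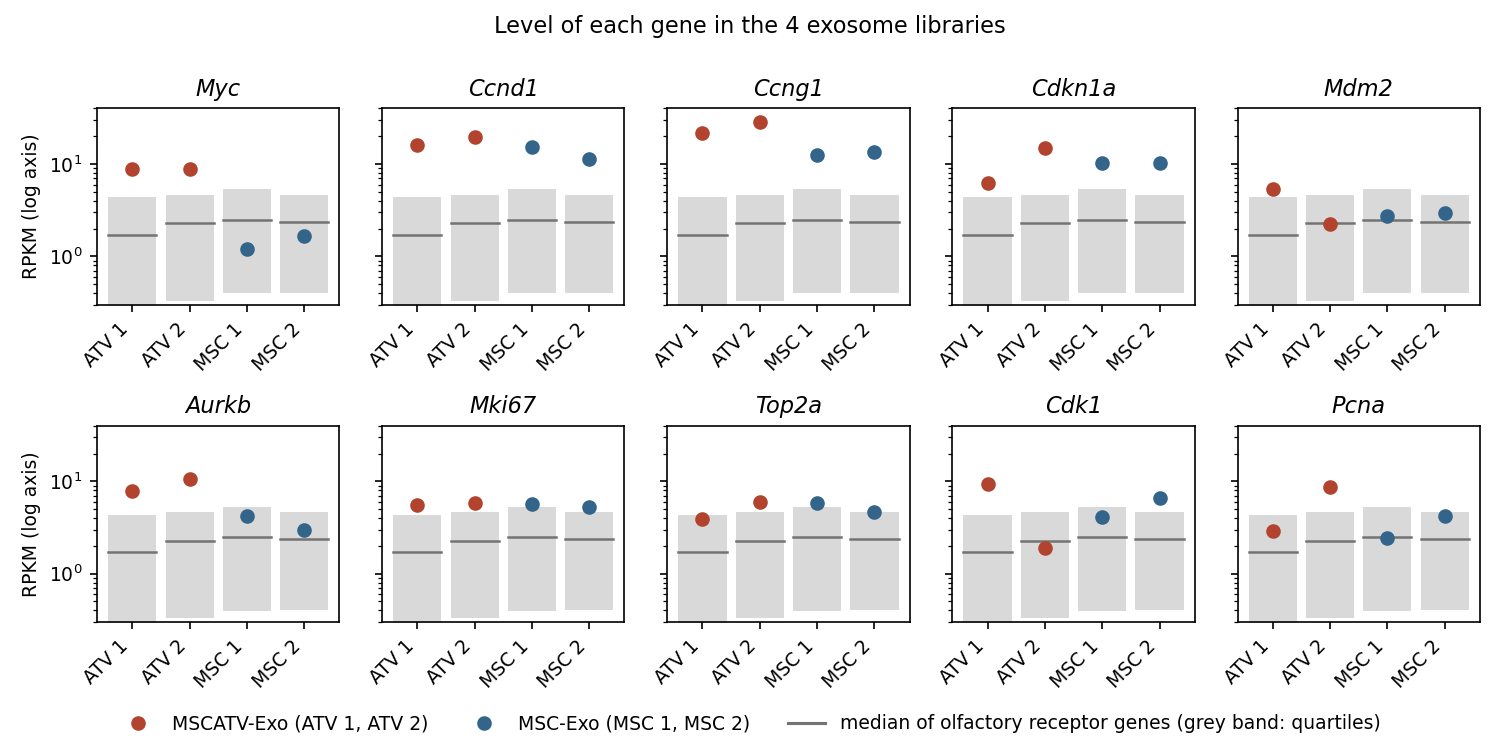
Level of each of the 10 genes in RPKM (log axis) in the 2 MSCATV-Exo libraries (red) and the 2 MSC-Exo libraries (blue); the grey band and line are the quartiles and median of 1189 olfactory receptor genes in the same library. Myc stood at 8.83 and 8.85 RPKM in MSCATV-Exo against 1.197 and 1.67 RPKM in MSC-Exo. Cdk1, Cdkn1a, Mdm2 and Top2a had an MSCATV-Exo library on either side of both MSC-Exo libraries.

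As a set, all 10 genes had a log2 fold change above 0 in MSCATV-Exo over MSC-Exo, with a median of 0.53, against 49.4% of all 33480 tested genes and a median of -0.0098. The sign held in all 10 alternative analyses for Myc, Ccnd1, Ccng1, Aurkb and Mki67, and turned in at least 1 of them for Cdkn1a, Mdm2, Top2a, Cdk1 and Pcna. Both MSCATV-Exo libraries were above both MSC-Exo libraries, on the TMM scale, for 5 genes (Myc, Ccnd1, Ccng1, Aurkb and Mki67), against 16.1% of all tested genes, and 0 of the 10 had the opposite order, against 17.4%. With total counts, 4 of the 10 had separated groups. The edgeR test called 0 of the 10 (0% of all genes), and DESeq2 called Myc and Ccng1 (0.249% of all genes). In the authors' deposited table Myc, Ccnd1, Ccng1 and Aurkb, 4 of the 10, had a q-value under 0.05, as did 34.3% of the 38021 genes listed there. Since the choice of the 10 used this contrast, nothing is read from these counts.

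**Figure D2:**
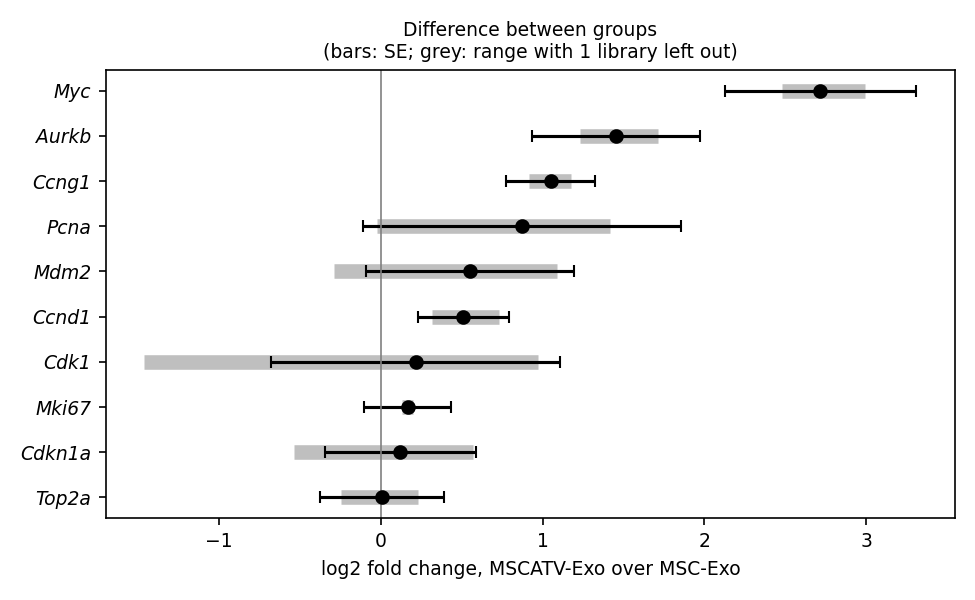
Log2 fold change of MSCATV-Exo over MSC-Exo for the 10 genes, from the edgeR fit (points, with SE as bars), and its range when 1 library was left out (grey). Myc, Aurkb, Ccng1 and Ccnd1 stayed above 0.3 throughout, whereas the range for Cdk1 ran from -1.46 to 0.97.

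The spread between libraries of a group does not use the contrast, but the counts of Myc were known when the 10 genes were chosen. Within MSCATV-Exo, the 95% counting intervals of the 2 libraries did not meet for 5 of the 10 genes: Ccng1, Cdkn1a, Mdm2, Cdk1 and Pcna. Over all tested genes this was so for 45.2%. The larger RPKM was 4.98 times the smaller for Cdk1, 2.97 times for Pcna, 2.38 times for Mdm2 and 2.35 times for Cdkn1a. For Myc and Mki67 it was 1.00 and 1.07 times. Within MSC-Exo, only Ccnd1 of the 10 had intervals that did not meet, against 38.5% of all tested genes, and the widest ratio was 1.73 times, for Pcna. The difference between the groups in this count was not tested.

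By mean RPKM over the 4 libraries the order was Ccng1 (19.2), Ccnd1 (15.6), Cdkn1a (10.4), Aurkb (6.39), Mki67 (5.56), Cdk1 (5.54), Myc (5.14), Top2a (5.13), Pcna (4.53) and Mdm2 (3.33). The range over libraries overlapped for every pair of neighbours in this order. Ccng1 was at the 98.4th percentile of 22633 protein-coding genes, Ccnd1 at the 97.9th and Cdkn1a at the 94.7th, while the other 7 lay between the 30.9th and the 70.5th. Ccnd1, Ccng1, Cdkn1a and Mki67 exceeded the upper quartile of olfactory receptor genes in every library.

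Markers of cell types other than MSCs gave a second scale. Of 34 leukocyte, endothelial and erythroid markers found, the highest was Klf1, an erythroid transcription factor, at a mean of 9.19 RPKM, and the median was 5.33 RPKM. By mean RPKM, Ccng1, Ccnd1 and Cdkn1a were above all 34. The 8 adipocyte markers were not among these, and the highest of them, Cfd, averaged 12.0 RPKM, above Cdkn1a at 10.4 RPKM. In MSCATV-Exo replicate 1 Cdkn1a was at 6.28 RPKM, below the mean of Klf1. Mki67 had 14 of the 34 above it, Cdk1 14, Myc 18, Top2a 18, Pcna 22, Mdm2 24 and Aurkb 7. By mean RPKM, Mki67, Cdk1, Myc, Top2a, Pcna, Mdm2 and Aurkb thus lay within the range of genes that define blood or vessel cells, but Ccnd1 did not. For Myc the mean joins unlike groups, at 8.84 RPKM in MSCATV-Exo and 1.44 RPKM in MSC-Exo. None of the 34 was at 0 in all 4 libraries.

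**Figure D3:**
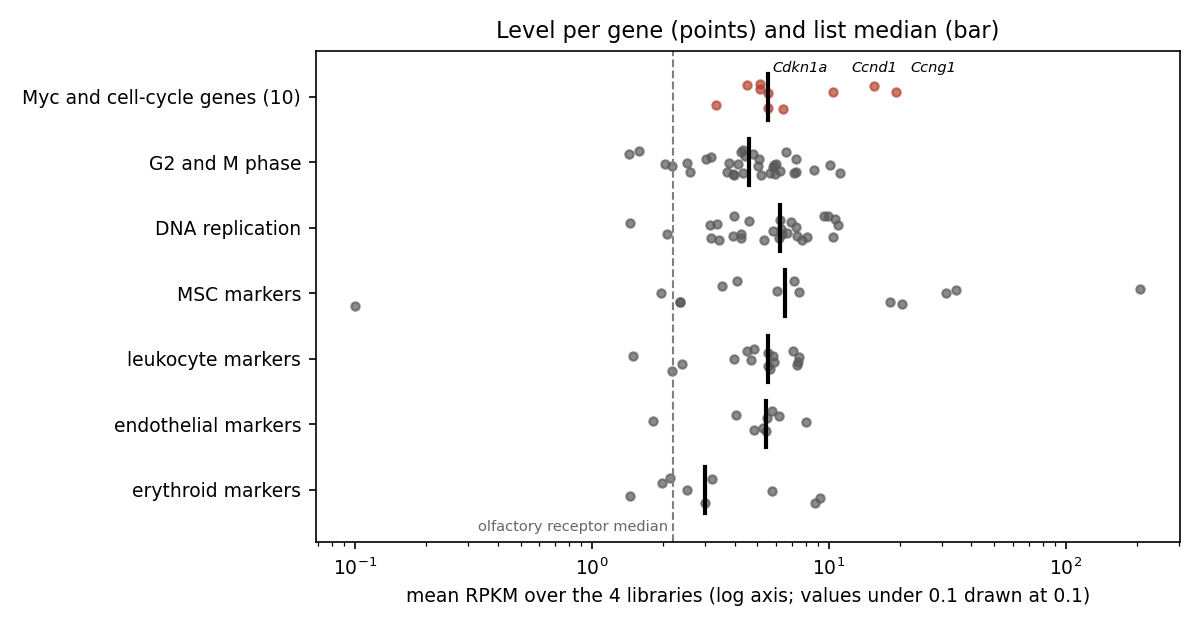
Mean RPKM over the 4 libraries (log axis) for the 10 genes (red) and for genes of other lists (grey), 1 point per gene, with the list median as a bar and the olfactory receptor median as a dashed line. Ccng1, Ccnd1 and Cdkn1a lay to the right of every leukocyte, endothelial and erythroid marker, and the other 7 lay among them.

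The summed level of the leukocyte markers was lower in both MSCATV-Exo libraries. It was 62.1 and 81.3 RPKM in MSCATV-Exo, against 93.8 and 90.6 RPKM in MSC-Exo, and 12 of 15 tested markers had a log2 fold change below 0 (median -0.43), with 0 called by edgeR, 0 with an unadjusted p under 0.05 and 0 called by DESeq2. That median ranged over the alternatives down to -0.55 with the replicate block and up to -0.055 without MSC-Exo replicate 2. The median RPKM of all protein-coding genes was also lower, at 4.12 and 4.54 in MSCATV-Exo against 4.74 and 4.70 in MSC-Exo. On the TMM scale, 3 of the 15 markers had separated groups with MSCATV-Exo lower and 2 with MSCATV-Exo higher. The shares of all tested genes were 17.4% and 16.1%. Tyrobp and Lyz2, the most abundant of them, were at 7.47 and 7.45 RPKM. Their part in the results for the 10 genes was not tested. The summed RPKM of the endothelial markers was 47.1 and 48.6 in MSCATV-Exo, against 42.8 and 48.7 in MSC-Exo. That of the erythroid markers was 31.0 and 38.6 in MSCATV-Exo, against 47.3 and 34.9 in MSC-Exo. Adipocyte markers summed to 34.0 and 52.9 RPKM in MSCATV-Exo, against 41.8 and 52.0 in MSC-Exo, and MSC markers to 346 and 364 in MSCATV-Exo, against 322 and 352 in MSC-Exo. In these 4 lists the groups overlapped.

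Around the 10 genes, 7 lists covered the wider pathway, and edgeR called 0 genes in any of them in either direction. The lists leave out the 10. Among 14 MYC network factors, which pair with MYC, compete with it or control its stability, 7 were higher and 7 lower (median log2 fold change -0.013, or 0.11 without MSC-Exo replicate 2). Max had 74 and 90 counts in MSCATV-Exo, against 53 and 157 in MSC-Exo, and the MYC-interacting factor gene Zbtb17 had 206 and 71 in MSCATV-Exo, against 122 and 125 in MSC-Exo. Both overlapped between groups. At an unadjusted p under 0.05 stood 2 members, named after their values were seen: Mlxip, a glucose-sensing partner of Mlx (197 and 242 counts in MSCATV-Exo, against 117 and 125 in MSC-Exo), and Mxd3, a repressor that competes for Max (17 and 12 in MSCATV-Exo, against 67 and 50 in MSC-Exo).

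The MYC target genes serve ribosome assembly, nucleotide and polyamine synthesis and other tasks, and include Ldha, Hspd1, Hspe1, Eif4e and Cdk4. Of 24 tested, 14 were higher and 10 lower (median 0.19). The median was 0.087 with total counts, 0.038 without MSCATV-Exo replicate 2 and 0.080 without MSC-Exo replicate 1. Ncl, which encodes the nucleolar protein nucleolin, was the most abundant at 250 and 259 RPKM in MSCATV-Exo, against 177 and 229 RPKM in MSC-Exo (log2 fold change 0.43 ± 0.17, SE). The nucleolar chaperone gene Npm1 had 527 and 980 counts in MSCATV-Exo, against 626 and 708 in MSC-Exo, and overlapped. Besides Ncl, the 1 other member at an unadjusted p under 0.05 was Rrs1, a ribosome assembly factor. It had 32 and 30 counts in MSCATV-Exo, against 116 and 118 in MSC-Exo (log2 fold change -1.92 ± 0.53, SE), and DESeq2 called it, the 1 call of that tool in the 7 lists. Rrs1 was singled out after its values were seen.

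The other 5 lists had 0 genes at an unadjusted p under 0.05 and 0 called by DESeq2. Of all 33480 tested genes, 1236 had an unadjusted p under 0.05 in edgeR, the background for the counts in every list. Among 25 cyclins, kinases, inhibitors and RB and E2F genes of G1 and S phase, 14 were higher and 11 lower (median 0.056, or -0.044 with total counts). Ccnd2, the cyclin D2 gene, had a mean of 72.2 RPKM, above the 15.6 RPKM of Ccnd1. It had 530 and 664 counts in MSCATV-Exo, against 561 and 512 in MSC-Exo. Cdk4, the kinase partner of both cyclins and a member of 2 lists, had 152 and 67 counts in MSCATV-Exo, against 109 and 79 in MSC-Exo. In DNA replication 12 of 28 genes were higher and 16 lower (median -0.025, or 0.085 without MSCATV-Exo replicate 2). The thymidine kinase gene Tk1 had 175 and 125 counts in MSCATV-Exo, against 133 and 119 in MSC-Exo, and the primase gene Prim1 had 112 and 62 in MSCATV-Exo, against 99 and 110 in MSC-Exo.

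Of 33 tested genes of G2 and M phase, 17 were higher and 16 lower (median 0.094, or -0.017 with total counts and -0.086 without MSC-Exo replicate 1). Ube2c, a ubiquitin-conjugating enzyme of mitotic exit, had 62 and 69 counts in MSCATV-Exo, against 36 and 25 in MSC-Exo, and Cdc20, which activates the ubiquitin ligase of mitotic exit, had 127 and 120 in MSCATV-Exo, against 68 and 87 in MSC-Exo. In both the groups did not overlap. On the TMM scale, 7 of the 33 had separated groups with MSCATV-Exo higher and 6 with MSCATV-Exo lower. The 6 were Cdc25b, Cdc25c, Bub1b, Kif23, Ttk and Prc1. Separation in either direction thus held for 39.4% of this list, against 33.5% of all tested genes. Cdca8, Incenp and Birc5, which encode partners of Aurkb in the passenger complex, were picked out after their values were seen. Cdca8 had 77 and 67 counts in MSCATV-Exo, against 56 and 59 in MSC-Exo (log2 fold change 0.32 ± 0.56, SE), without overlap. Incenp had 274 and 178 counts in MSCATV-Exo, against 218 and 146 in MSC-Exo, and Birc5 had 30 and 28 in MSCATV-Exo, against 29 and 7 in MSC-Exo. For both of these the groups overlapped.

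Of 24 tested genes of p53 and its targets, 14 were higher and 10 lower (median 0.19). This median was -0.094 when MSCATV-Exo replicate 1 was dropped and 0.0064 when MSC-Exo replicate 1 was. Phlda3, an inhibitor of AKT, had 158 and 157 counts in MSCATV-Exo, against 114 and 118 in MSC-Exo, and the apoptosis effector gene Bax had 74 and 86 in MSCATV-Exo, against 75 and 41 in MSC-Exo. Of 18 immediate early genes, the class to which Myc belongs, 11 were higher and 7 lower (median 0.13, or 0.54 when MSC-Exo replicate 2 was dropped). Junb, a subunit of AP-1, had 117 and 115 counts in MSCATV-Exo, against 72 and 85 in MSC-Exo, and Egr1, a zinc finger factor, had 84 and 71 in MSCATV-Exo, against 42 and 126 in MSC-Exo.

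**Figure D4:**
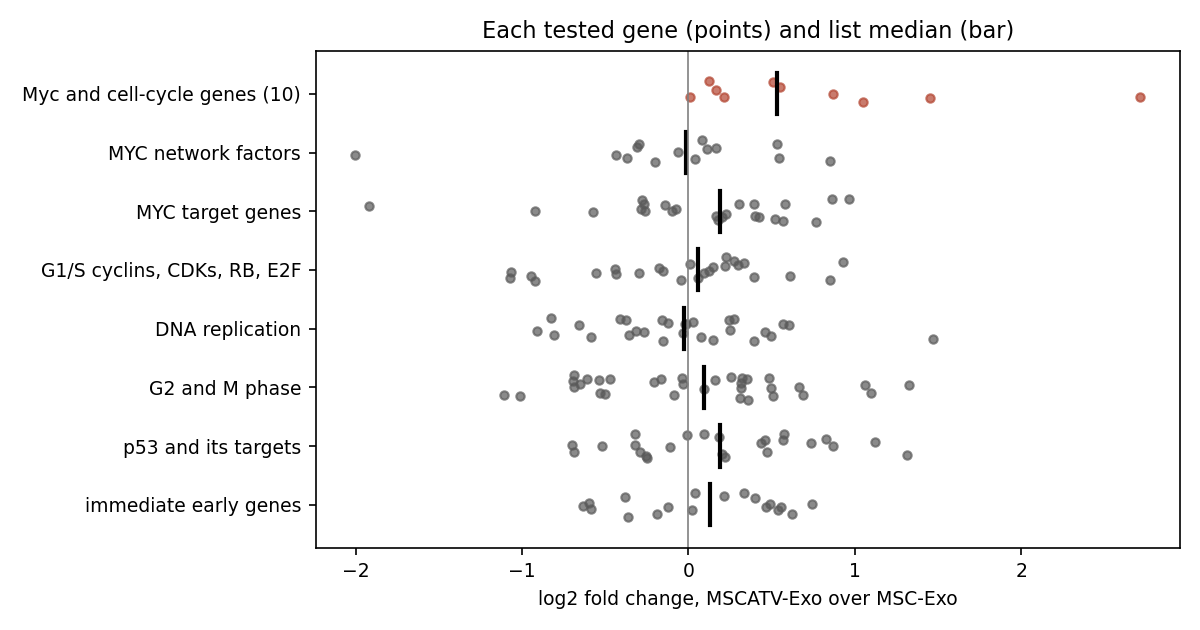
Log2 fold change of MSCATV-Exo over MSC-Exo for each of the 10 genes (red) and each tested gene of the 7 pathway lists (grey), with the median of each list as a bar. The medians of the 7 lists lay between -0.025 and 0.19, against 0.53 for the 10 genes, which were chosen with this contrast known.

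In position the 10 genes fell on 5 chromosomes, with Ccng1, Aurkb and Top2a on chromosome 10. None overlapped another gene of the table by its coordinates, so no antisense or nested gene listed there shared its reads, which the library kit does not mark by strand. Beside the Myc paralogs above, pseudogene copies with similar names were listed for Cdk1, Mki67 and Pcna, and how reads were shared with any of these is not stated. The Cdk1-like pseudogene LOC100909721 had 27 and 10 counts in MSCATV-Exo, against 14 and 33 in MSC-Exo. A second Cdk1 pseudogene, LOC103694262, had 8 and 12 in MSCATV-Exo, against 0 and 0 in MSC-Exo. The Ki-67-like LOC100910502 had 52 and 0 counts in MSCATV-Exo, against 8 and 28 in MSC-Exo, and the Pcna copy LOC299084 had 0 and 6 in MSCATV-Exo, against 0 and 14 in MSC-Exo. The values of Myc, Cdk1, Mki67 and Pcna are uncertain by as much as such reads were misassigned.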

How the data were processed

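Total RNA from exosomes was sequenced in 4 libraries, 2 from MSCATV-Exo and 2 from MSC-Exo. Per the submitters' processing notes, TopHat2 aligned the reads to the rat build, named as rn6 and Rnor_6.0; its version, the read counter and the annotation release are not given in the sources used here. Per the labels' protocols, the kit was NEBNext Ultra. Per the file headers, the gene table holds raw read counts and RPKM. The deposited RPKM equals the count divided by the deposited gene length and by the sum of the library's gene counts. The authors' comparison table has mean RPKM, their log2 ratio without a pseudocount, and p-values and q-values whose test is not stated.

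All genes of the table were fitted together with edgeR 4.0.16 (R 4.3.3): filterByExpr, TMM factors and a two-sided quasi-likelihood F test of MSCATV-Exo over MSC-Exo, with p adjusted by Benjamini-Hochberg and a threshold of 0.05. SE is the log2 fold change over the root of its F. The biological coefficient of variation was 0.559. The results were recomputed with DESeq2 1.42.0, RLE factors, total counts, no filter, a mean of at least 1 CPM, a replicate block and each library dropped. For a count of 0 the limit was set at 3 counts, or 0.504 to 0.561 CPM. The 2-sided exact 95% Poisson interval of a count of 0 ends higher, at 3.69 counts. Both the set limit and the Poisson intervals cover counting error alone, as PCR copies of a molecule were not told apart.

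The 10 genes and the lists were chosen with earlier results of these data known. From each pathway list the genes called by edgeR and the 2 with the highest mean RPKM were named; a few others are marked as chosen after their values were seen. The tables of non-coding transcripts list none of the 10 genes and were not used. Reference tables of mouse were left aside.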

Additional observations from a re-analysis of the deposited data

How the results depend on the processing

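The edgeR count of 0 called genes became 90 with DESeq2, 8 with no filter on low counts, 4 with the replicate block, and 1 to 168 with a library left out: 1 or 2 when MSC-Exo replicate 1 or 2 was dropped, and 27 or 168 when MSCATV-Exo replicate 1 or 2 was. The cause was not tested. A lone library was then assumed to vary like the other group. The titles give same-numbered libraries a shared number and do not say whether they shared a culture or batch. Their deviations correlated at -0.000516 across genes, which are not independent replicates. This value cannot show that nothing was shared, and a shared batch was not tested. With the replicate block 8 of the 10 genes were higher in MSCATV-Exo, with total counts 9, and with a library left out 7 to 9. Separated groups with MSCATV-Exo higher numbered 5 to 8, and with MSCATV-Exo lower 0 to 2, with a library left out, where fewer libraries make separation easier. The median log2 fold change of the 10 was 0.42 with total counts and 0.50 to 0.67 with a library left out. Total counts gave a median of all genes of -0.11, against -0.0098 with TMM. For MYC network factors the median was -0.13 with total counts and -0.13 to 0.11 with a library left out. Leaving out a library gave -0.28 to 0.085 for DNA replication, -0.086 to 0.22 for G2 and M phase, -0.094 to 0.25 for p53 and its targets and 0.046 to 0.54 for immediate early genes. Low depth limits single genes: Pcna had 15 to 56 counts.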
